A study of Mus musculus with 2 samples.

Results

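Fibroblast-like cells of the leptomeninges were taken from 2 single-cell libraries of mouse hippocampus as 134 cell barcodes out of 18754. Members were chosen by measured RNA: a barcode needed 500 or more unique molecular identifiers (UMIs, each standing for 1 captured RNA molecule), 250 or more genes and a mitochondrial share of UMIs no higher than 20%. The genes Dcn, Col1a1, Col1a2, Col3a1, Lum and Slc6a13 together had to give at least 3 UMIs, at least 0.3% of the barcode's UMIs, and come from at least 2 of the 6 genes. Barcodes with 1.5% or more of Meg3 plus Snhg11, which are neuronal RNAs, or 0.3% or more of the endothelial genes Cldn5, Flt1 and Pecam1, were left out. The members were 81 of the 12076 barcodes of library 1 within the limits on depth, genes and mitochondrial share, or 0.671% (exact binomial 95% interval 0.533 to 0.833%). They were 53 of 4034 in library 2, or 1.31% (0.986 to 1.72%).

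Both libraries were made with the 10x Genomics 3' chemistry, version 3, from wild-type male C57BL/6 mice 10 weeks old, and each is 1 pool of the hippocampi of 3 animals. The series sets enzymatic digestion (30 min at 37 °C) against mechanical dissociation at 4 °C. No label ties either library to a procedure, so the libraries are called library 1 and library 2. The file names of library 2 bear a sample number that differs from the one in its title, which the sources used here do not explain. The libraries were placed in no group and were not compared with each other. A Percoll gradient had removed myelin and debris, and no step that selects or removes meningeal cells is described. Each library is 1 sample, so no test was possible. The intervals describe counting error alone and hold nothing on how animals or preparations vary.

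The leptomeninges are the inner membranes around the brain, the pia and the arachnoid, and their fibroblasts also line vessels that enter the tissue. These cells build collagen and basement membrane, move solutes between cerebrospinal fluid and blood, and release retinoic acid, growth factors and prostaglandin D synthase. In mouse brain they are told from pericytes, which sit on the capillary wall, by Pdgfra, Dcn, Lum and fibrillar collagens. Pericytes share Pdgfrb, Vtn and several developmental transcription factors with them.

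The members differed in depth between the libraries. Library 1 held 18783691 UMIs, of which 65944 were in members, with a median of 755 UMIs per member (506 to 2186). Library 2 held 29356086 UMIs, of which 379912 were in members, with a median of 6114 (645 to 25525). A single UMI summed over the members is thus worth 15.2 counts per 1000000 UMIs (CPM) in library 1 and 2.63 CPM in library 2. A gene without a UMI can still stand at up to 45.5 CPM in library 1 and 7.90 CPM in library 2, the level of 3 UMIs. The median mitochondrial share was 4.18% in members and 1.71% in the rest of library 1, and 8.96% in members and 7.94% in the rest of library 2. The libraries had 19 barcode sequences in common, and none of these was a member.

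The 6 genes of the rule chose the members, and their levels are a description. Dcn, the collagen-binding proteoglycan decorin, stood at 1577 CPM in members and 56.6 CPM in the rest of library 1, and at 3564 CPM in members and 8.32 CPM in the rest of library 2. Col1a2, a chain of type I collagen, stood at 1410 CPM in members of library 1 and 1506 CPM in members of library 2. Slc6a13, a transporter for GABA and taurine, stood at 1486 and 1206 CPM in the members of libraries 1 and 2. Of the 81 members of library 1, 32 met the rule with 2 of the 6 genes and 24 with 3 UMIs, the least allowed. In library 2, 40 of 53 members had UMIs of 5 or more of the genes. The share of UMIs from the rule genes had its lowest value at 0.317% in library 1 and 0.305% in library 2. Just outside the rule, 20 barcodes of library 1 and 65 of library 2 met the UMI and gene limits at a lower share, up to 0.294% and 0.293%.

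Markers of neighbouring cell types were set against the label. Of the defining genes of endothelium, Cldn5 and Pecam1 had 0 UMIs in members of both libraries, which the rule favours. Of genes the rule did not use, the macrophage genes Mrc1, Pf4, Cd163, Lyve1, Ms4a7 and Cbr2 summed to 0 CPM in members of library 1 and 5.26 CPM (0.638 to 19.0) in members of library 2. The pericyte gene Rgs5 had 0 UMIs in members of library 1, and stood at 29.0 CPM in members of library 2 against 4430 CPM in pericyte and smooth muscle-like barcodes. The 8 pericyte and smooth muscle markers, of which Vtn and Tagln in library 1 and Vtn in library 2 were at least 4-fold higher than in the rest, summed to 3412 CPM in members and 59.1 CPM in the rest of library 1, and to 7012 CPM in members and 1403 CPM in the rest of library 2. Most of this was Vtn, at 3245 CPM in members and 44.5 CPM in the rest of library 1, and at 6554 CPM in members and 460.0 CPM in the rest of library 2. Endothelial markers summed to 485 CPM in members and 60.5 CPM in the rest of library 1, with Flt1 at 8 UMIs, and Itm2a and Slco1a4, 2 of the 3 outside the rule, at least 4-fold higher. In library 2 they summed to 411 CPM in members and 2370 CPM in the rest, with Flt1 at 6 UMIs and 2 of the 3 at least 4-fold lower. The part of these RNAs in the members' other levels was not tested. The dural gene Dpp4 gave 1 UMI in each library. The arachnoid barrier gene Cdh1 gave 0 UMIs in library 1 and 2 in library 2.

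Promoter sequences are shown for 3 genes that stood high in members of both libraries: a collagen chain of the rule, and the cystine-glutamate exchanger Slc7a11 and the organic anion transporter Slc22a6, which the rule did not use. Each line gives the 250 bases before a RefSeq transcript start on GRCm38.p6, 5' to 3' on the gene's strand. Capitals mark 4 motifs on either strand. The letters CCAAT are the box of that name. The letters TATAAA are the TATA box. The letters GTAAACA are a motif of forkhead factors. The letters TGATGCAAA are an amino acid response element known for the factor ATF4. The last motif was added after the Slc7a11 sequence had been seen.
Col1a2, chr6:4505368-4505617, plus strand: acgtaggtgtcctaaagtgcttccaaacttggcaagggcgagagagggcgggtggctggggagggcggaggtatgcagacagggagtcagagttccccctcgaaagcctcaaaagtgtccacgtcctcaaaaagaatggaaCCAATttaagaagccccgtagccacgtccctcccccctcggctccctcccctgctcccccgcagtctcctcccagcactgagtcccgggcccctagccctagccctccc
Slc7a11, chr3:50443614-50443863, minus strand: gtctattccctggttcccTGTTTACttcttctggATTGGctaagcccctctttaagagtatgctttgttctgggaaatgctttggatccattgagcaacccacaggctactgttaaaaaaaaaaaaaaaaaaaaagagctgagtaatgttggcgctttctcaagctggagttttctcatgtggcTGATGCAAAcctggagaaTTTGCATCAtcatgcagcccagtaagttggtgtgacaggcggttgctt
Slc22a6, chr19:8617746-8617995, plus strand: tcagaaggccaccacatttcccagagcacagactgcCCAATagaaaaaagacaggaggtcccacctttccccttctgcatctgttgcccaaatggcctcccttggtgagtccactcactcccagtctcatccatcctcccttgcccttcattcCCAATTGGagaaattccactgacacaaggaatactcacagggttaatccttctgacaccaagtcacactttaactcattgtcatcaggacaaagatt

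Among the 26 genes named first here (the 6 of the rule and the 20 leading genes below), 19 had a RefSeq promoter, 22 windows in all. CCAAT lay in 8 of the 22 windows, against 33.8% of the 32851 mouse promoters of the same length, and TATAAA in 2 of 22 against 12.4%. GTAAACA lay in 1 of 22, against 3.17% of all promoters. TGATGCAAA lay in 1 of 22, the Slc7a11 window, which holds it once on each strand, against 0.225% of all promoters. The Slc22a6 window holds CCAAT 3 times, and 2 of these overlap on opposite strands. A match is a description of the letters and not a binding site.

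Outside the rule, members held more RNA of named transporters, matrix proteins and meningeal transcription factors than the rest of their library. A fold is the member level over that of all other kept barcodes of the same library, with 10 CPM added to both. Of 25402 genes detected in library 1 outside the rule, 427 (1.68%) were at least 4-fold higher in members than in the rest, and 945 (3.72%) at least 4-fold lower. In library 2 these were 420 (1.76%) and 507 (2.13%) of 23815. The higher genes had 192 in common, 45.0% of those of library 1 and 45.7% of those of library 2. Where the 95% counting intervals themselves had to lie 4-fold apart, 283 genes (1.11%) were higher in library 1 and 556 (2.33%) in library 2, with 170 in common. The first counts depend on the settings. In library 1 there were 958 genes from the 10 members with 1000 or more UMIs and 500 or more genes, 869 with stricter markers, 1302 with 1 CPM added and 89 with 50 CPM added. In library 2 there were 1036 with 1 CPM added and 127 with 50 CPM added.

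Ranked by the lower of its folds in the 2 libraries, the first gene was Slc7a11, which imports cystine in exchange for glutamate (chromosome 3, 49892526 to 50443614, minus strand, GRCm38). It stood at 5520 CPM (4967 to 6117) in members and 106 CPM in the rest of library 1, and at 3648 CPM (3459 to 3845) in members and 14.9 CPM in the rest of library 2. With each barcode thinned to 500 UMIs, 76.5% of members of library 1 had an Slc7a11 UMI, against 1.14% of microglial and 0.751% of neuronal barcodes. The same shares were 73.6% of members, 0.298% of microglial and 1.24% of neuronal barcodes in library 2. Unthinned, 82.7% of members of library 1 and 92.5% of members of library 2 had an Slc7a11 UMI, at the median depths above. Of the rule genes at 500 UMIs, Dcn had a UMI in 54.3% of members of library 1 and 67.9% of members of library 2.

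Ptgds, the prostaglandin D synthase secreted into cerebrospinal fluid, was the most abundant of the leading genes. It stood at 26613 CPM (25383 to 27888) in members and 1397 CPM in the rest of library 1, and at 51028 CPM (50312 to 51751) in members and 762 CPM in the rest of library 2. The level in library 2 rested in large part on the deepest member. Of its 25525 UMIs 31.9% came from Ptgds, against a median of 1.81% over the members. With each barcode weighted equally, Ptgds stood at 42322 CPM in members of library 2. Its RNA was also met outside the members: 30.6% of microglial and 26.1% of neuronal barcodes of library 1 had a Ptgds UMI at 500 UMIs, against 88.9% of members. In library 2 these shares were 66.0% of members, 5.67% of microglial and 12.9% of neuronal barcodes.

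The other 18 of the 20 leading genes had folds of 14.7 or more in both libraries. Ranbp3l stood at 1789 CPM in members and 23.3 CPM in the rest of library 1, and at 495 CPM in members and 6.08 CPM in the rest of library 2. Itih5, which binds hyaluronan, stood at 682 CPM in members and 10.6 CPM in the rest of library 1, and at 2303 CPM in members and 83.5 CPM in the rest of library 2. Spp1, the secreted glycoprotein osteopontin, stood at 318 CPM in members and 6.19 CPM in the rest of library 1, and at 1140 CPM in members and 25.9 CPM in the rest of library 2. Of the 53 members of library 2, 24 had no Spp1 UMI, and pericyte and smooth muscle-like barcodes there stood at 516 CPM. The remaining genes were Slc6a20a, Slc22a6, Pcolce, Aebp1, Cped1, Aox3, Foxd1, Serping1, Nupr1, Colec12, Tbx18, Ctgf, Efemp1, Fibin and AC132852.2, and they lay between 203 and 1450 CPM in members of both libraries. AC132852.2 (chromosome 9, 123644194 to 123646987, minus strand) lies within Slc6a20a (123634770 to 123678885, minus strand). Their counts may thus not be independent, which was not tested.

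**Figure D1:**
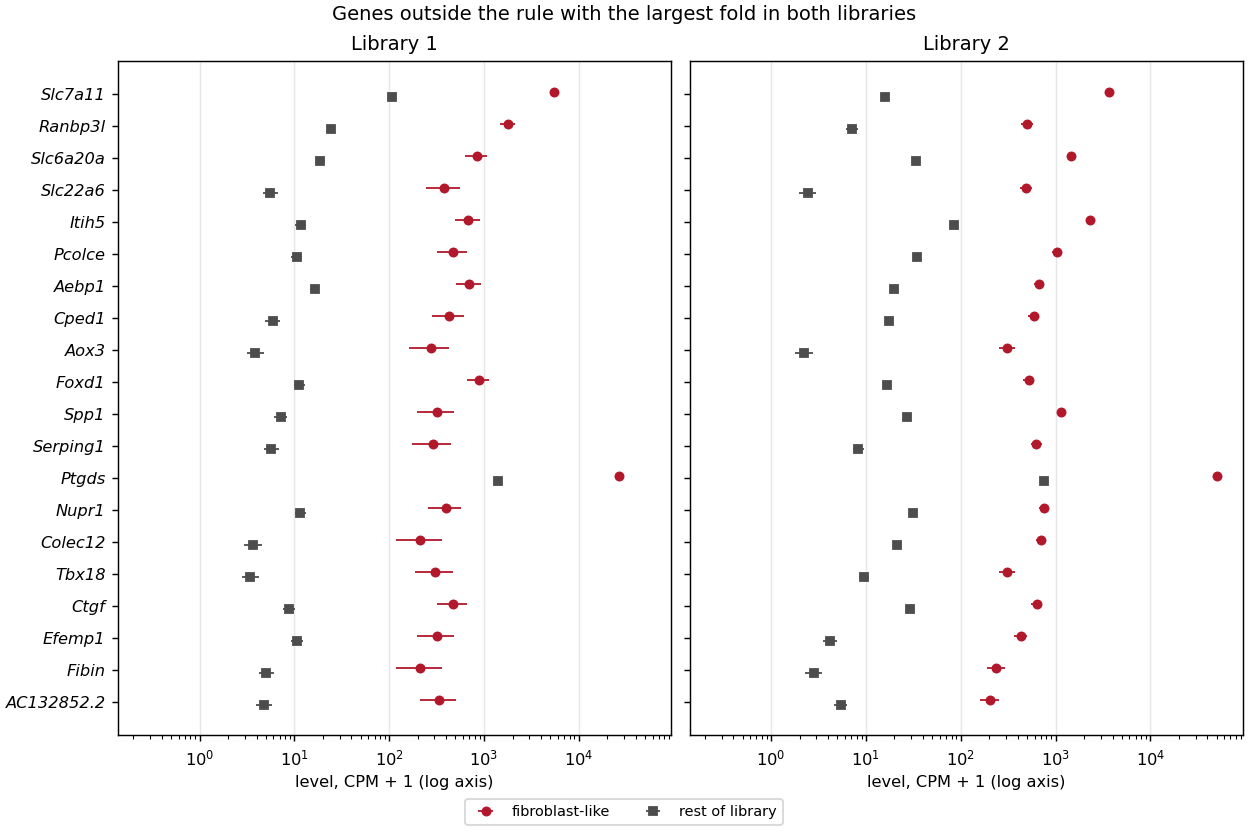
Level (CPM + 1, log axis) of the 20 leading genes in fibroblast-like barcodes (red circles) and in the rest of the same library (grey squares), with exact 95% Poisson intervals. In both libraries every red point lies to the right of its grey point, with Slc7a11 at 5520 and 3648 CPM and Ptgds at 26613 and 51028 CPM in members.

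The matrix genes were described by role. Of 15 fibrillar and network collagens outside the rule, 5 in library 1 and 10 in library 2 were at least 4-fold higher than in the rest, with a median log2 fold of 1.60 and 2.95, against medians of -0.07 and -0.02 over all detected genes. With counting intervals 4-fold apart the counts were 3 and 13. Col13a1, a membrane collagen, stood at 152 CPM (72.7 to 279) in members and 3.75 CPM in the rest of library 1, and at 247 CPM (200 to 303) in members and 19.6 CPM in the rest of library 2. Col12a1, a collagen that associates with fibrils, stood at 75.8 CPM (24.6 to 177) in members and 11.5 CPM in the rest of library 1. In library 2 Col12a1 stood at 400.1 CPM (339 to 469) in members and 1.34 CPM in the rest.

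Of 13 basement membrane genes, 6 in library 1 and 8 in library 2 were at least 4-fold higher than in the rest. Lama1, the laminin chain known from the pial basement membrane, stood at 152 CPM (72.7 to 279) in members and 1.30 CPM in the rest of library 1, and at 353 CPM (295 to 418) in members and 1.77 CPM in the rest of library 2. Nid1, the laminin-binding protein nidogen, stood at 182 CPM in members and 2.99 CPM in the rest of library 1, and at 479 CPM in members and 29.2 CPM in the rest of library 2. Col4a1, a chain of type IV collagen, stood at 60.7 CPM (16.5 to 155) in members and 55.6 CPM in the rest of library 1, where the interval holds the level of the rest. In library 2 Col4a1 stood at 342 CPM in members, against 343 CPM in endothelial-like and 474 CPM in pericyte and smooth muscle-like barcodes.

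Of 8 small leucine-rich proteoglycans outside the rule, which bind collagen fibrils, 4 in library 1 and 6 in library 2 were at least 4-fold higher than in the rest. Fmod (fibromodulin) stood at 182 CPM (94.0 to 318) in members and 3.80 CPM in the rest of library 1, and at 497 CPM (429 to 574) in members and 3.28 CPM in the rest of library 2. Of 24 other matrix proteins 11 and 16 were at least 4-fold higher. Efemp1 (fibulin-3) stood at 318 CPM in members and 9.66 CPM in the rest of library 1, and at 429 CPM in members and 3.19 CPM in the rest of library 2. Mgp, an inhibitor of calcification, stood at 288 CPM in members of library 1 and 4559 CPM in members of library 2. The level in library 2 rested on few barcodes: 36 of 53 had no Mgp UMI, and 1 barcode had 8.15% of its UMIs from this gene. Fn1 (fibronectin) gave 6 UMIs in members of library 1 (91.0 CPM, 33.4 to 198) and 0 in members of library 2, against 665 CPM in endothelial-like barcodes of library 2.

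Genes for processing collagen were less distinctive. Of 18, 3 in library 1 and 5 in library 2 were at least 4-fold higher than in the rest. Pcolce, which enhances removal of the procollagen C-propeptide, stood at 470.1 CPM in members and 9.61 CPM in the rest of library 1, and at 1027 CPM in members and 33.3 CPM in the rest of library 2. Serpinh1, the collagen chaperone HSP47, stood at 227 CPM in members and 14.8 CPM in the rest of library 1, and at 587 CPM in members and 79.9 CPM in the rest of library 2. Of 13 metalloproteases and their inhibitors 1 and 3 were at least 4-fold higher, with Timp3, an inhibitor bound to matrix, at 758 CPM in members of library 1 and 2374 CPM in members of library 2.

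Transporters of organic acids, amino acids and anions were a second large group. Of 21 transporter genes outside the rule, 11 in library 1 and 10 in library 2 were at least 4-fold higher than in the rest, and 0 and 2 at least 4-fold lower. Without Slc6a13 the list summed to 11085 CPM (10296 to 11919) in members and 931 CPM in the rest of library 1, and to 9089 CPM (8788 to 9397) in members and 1506 CPM in the rest of library 2. Slc22a6 (OAT1), an uptake carrier of organic anions, stood at 379 CPM (245 to 560) in members and 4.56 CPM in the rest of library 1, and at 492 CPM (424 to 568) in members and 1.42 CPM in the rest of library 2. Slc22a8 (OAT3) stood at 440 CPM in members of library 1 and 724 CPM in members of library 2, Slc13a3, a carrier of dicarboxylates, at 288 and 258 CPM. The sulfate carrier Slc13a4 stood at 925 CPM (708 to 1188) in members and 11.0 CPM in the rest of library 1, and at 432 CPM (368 to 503) in members and 27.3 CPM in the rest of library 2.

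Carriers of the vessel wall did not follow this pattern in library 2. The glucose carrier Slc2a1 gave 14 UMIs in members there (36.9 CPM, against 2773 CPM in endothelial-like barcodes), and Slco1a4, an organic anion carrier of brain endothelium, also gave 14 UMIs. In library 1 Slco1a4 was 5.84-fold higher in members than in the rest, from 8 UMIs.

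**Figure D2:**
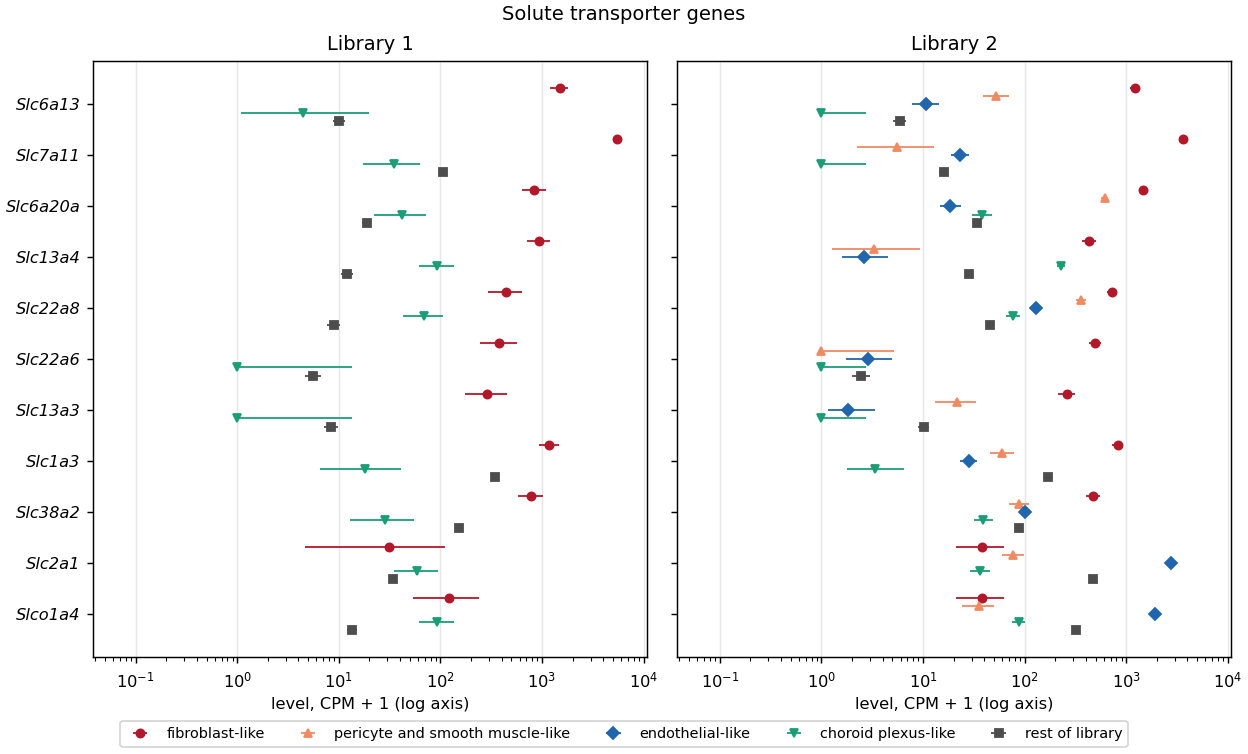
Level (CPM + 1, log axis) of solute transporter genes by class with exact 95% Poisson intervals, fibroblast-like barcodes as red circles. In library 2 the members lie to the right of all other classes for Slc7a11, Slc6a20a, Slc13a4, Slc22a6, Slc22a8, Slc13a3, Slc1a3 and Slc38a2, while endothelial-like barcodes lie to the right for Slc2a1 and Slco1a4; pericyte and smooth muscle-like and endothelial-like barcodes of library 1 are not drawn, being under 50.

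Of 12 genes of retinoic acid synthesis and handling 5 in library 1 and 7 in library 2 were at least 4-fold higher than in the rest. Cyp26b1, which degrades retinoic acid, gave 13 UMIs in members of library 1 (197 CPM, 105 to 337), against 2.99 CPM in the rest. The retinol carrier Rbp4 stood at 167 CPM (83.3 to 298) in members and 7.87 CPM in the rest of library 1, and Cyp1b1 at 106 CPM (42.7 to 219) in members and 1.03 CPM in the rest. Aldh1a2, which makes retinoic acid, gave 4 UMIs in members of library 1 (60.7 CPM, 16.5 to 155), against 0.814 CPM in the rest. It stood at 229 CPM (183 to 282) in members and 0.948 CPM in the rest of library 2. Aldh1a1, a related dehydrogenase, stood at 91.0 CPM (33.4 to 198) in members and 5.59 CPM in the rest of library 1, and at 511 CPM (441 to 588) in members and 6.12 CPM in the rest of library 2. Aldh1a3 and the binding protein Crabp1 gave 0 UMIs in members of both libraries.

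Transcription factors known from meningeal mesenchyme formed the list with the most genes past 4-fold in library 1, 13 of 24, together with 16 of 24 in library 2. None of the 24 was at least 4-fold lower in either library. Foxd1, a forkhead factor, stood at 880 CPM (668 to 1137) in members and 10.3 CPM in the rest of library 1, and at 519 CPM (449 to 596) in members and 15.7 CPM in the rest of library 2. Foxc1, required for meningeal development, stood at 500.4 CPM (344 to 703) in members and 5.81 CPM in the rest of library 1, and at 490 CPM (422 to 565) in members and 48.0 CPM in the rest of library 2. Zic1 stood at 834 CPM in members of library 1 and 795 CPM in members of library 2, and Tbx18 at 303 and 308 CPM. Tcf21 gave 0 UMIs in members of library 1 and 40 in members of library 2 (105 CPM, 75.2 to 143).

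Among growth factors and their receptors, 11 of 23 genes in library 1 and 14 of 23 in library 2 were at least 4-fold higher than in the rest. Ptn, the heparin-binding factor pleiotrophin, stood at 2350.5 CPM (1995 to 2751) in members and 375 CPM in the rest of library 1, and at 10171 CPM (9853 to 10497) in members and 567 CPM in the rest of library 2. Pdgfra, the PDGF receptor of fibroblasts and oligodendrocyte precursors, stood at 258 CPM (150 to 413) in members and 20.2 CPM in the rest of library 1, and at 713 CPM (631 to 803) in members and 5.73 CPM in the rest of library 2. The bone morphogenetic proteins Bmp4, Bmp6 and Bmp7 lay between 106 and 167 CPM in members of library 1 and between 226 and 321 CPM in members of library 2. Tgfb2 gave 0 UMIs in members of library 1 and 2 in library 2.

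In the insulin-like growth factor system 5 of 10 genes in each library were at least 4-fold higher than in the rest. Igfbp2, a binding protein of these factors, stood at 1137 CPM (895 to 1426) in members and 80.0 CPM in the rest of library 1, and at 3780 CPM (3587 to 3980) in members and 209 CPM in the rest of library 2. The choroid plexus-like barcodes, epithelial cells that also face cerebrospinal fluid, had 2499 CPM of Igfbp2 in library 1 and 1549 CPM in library 2. Of 20 genes that mark meningeal layers 10 and 11 were at least 4-fold higher. The gap junction genes among them were Gjb6, at 531 CPM in members of library 1 and 503 CPM in members of library 2, and Gja1, at 622 and 332 CPM. Both are known from astrocytes too. The astrocyte list summed to 955 CPM in members and 1058 CPM in the rest of library 1, and to 558 CPM in members and 186 CPM in the rest of library 2, with Gjb6 counted in it. Slc1a3, a glutamate carrier also known from astrocytes, was 3.37-fold higher in members than in the rest of library 1 and 4.66-fold in library 2.

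Immune and lipid genes gave a mixed picture. Of 13 complement genes 4 in library 1 and 1 in library 2 were at least 4-fold higher, and 3 in each library, the microglial C1q chains, at least 4-fold lower. Serping1, the inhibitor of the first complement component, was the gene higher in library 2, at 626 CPM (549 to 711) in members and 7.28 CPM in the rest, and stood at 288 CPM (173 to 450) in members and 4.72 CPM in the rest of library 1. C3 gave 0 UMIs in members of both libraries. Of 21 chemokine and cytokine genes 2 in each library were at least 4-fold higher, with 0 at least 4-fold lower in library 1 and 3 (Nfkbia, Tnfaip3 and Icam1) in library 2. Cxcl12, a chemokine of meningeal and vascular cells, stood at 227 CPM (127 to 375) in members and 19.2 CPM in the rest of library 1, and at 1061 CPM (960 to 1170) in members and 123 CPM in the rest of library 2. Apod, the lipid carrier apolipoprotein D, stood at 2457 CPM (2093 to 2865) in members and 240 CPM in the rest of library 1, and at 11479 CPM (11141 to 11825) in members and 211 CPM in the rest of library 2.

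Set against single vascular classes instead of the whole library, the members had the fewest genes past 4-fold against pericytes. This could be done in library 2 only, where the marker rules gave 155 pericyte and smooth muscle-like and 300 endothelial-like barcodes, against 23 and 36 in library 1. Of 23815 genes 275 (1.15%) were at least 4-fold higher in members than in pericyte and smooth muscle-like barcodes and 313 (1.31%) at least 4-fold lower. Against endothelial-like barcodes 435 (1.83%) were higher and 498 (2.09%) lower, and against the 88 choroid plexus-like barcodes 837 (3.51%) were higher and 316 (1.33%) lower. Library 1 had 63 choroid plexus-like barcodes, and there 2479 (9.76%) of 25402 genes were higher and 764 (3.01%) lower in members.

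The transcription factors were largely shared with pericyte and smooth muscle-like barcodes: 3 of 24 were at least 4-fold higher in members, with a median log2 fold of 0.43, against 12 of 24 and 1.86 over endothelial-like barcodes. Zic1 stood at 795 CPM in members, 700 CPM in pericyte and smooth muscle-like and 38.4 CPM in endothelial-like barcodes. Of the basement membrane genes 1 of 13 was higher than in pericyte and smooth muscle-like barcodes, and this was Lama1, at 353 CPM in members and 0 UMIs in those barcodes. The leading genes varied in this comparison. Members were 2.36-fold higher for Slc6a20a and 2.19-fold for Spp1 and for Colec12. They were 251-fold higher for Slc7a11 and 50.2-fold for Slc22a6.

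Other groups set members and pericytes apart. The collagens had 7 of 15, the retinoid genes 6 of 12, the transporters 6 of 21, the layer markers 12 of 20 and the growth factors 8 of 23 genes at least 4-fold higher in members. Pdgfra stood at 713 CPM in members and 2.28 CPM in pericyte and smooth muscle-like barcodes, while Pdgfrb stood at 384 CPM in members and 1273 CPM in those barcodes. Vtn (vitronectin), often used as a pericyte marker and used here to choose the pericyte class, stood at 6554 CPM in members and 10209 CPM in pericyte and smooth muscle-like barcodes. Igfbp7 stood at 979 CPM in members, 3966 CPM in pericyte and smooth muscle-like and 2288 CPM in endothelial-like barcodes.

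**Figure D3:**
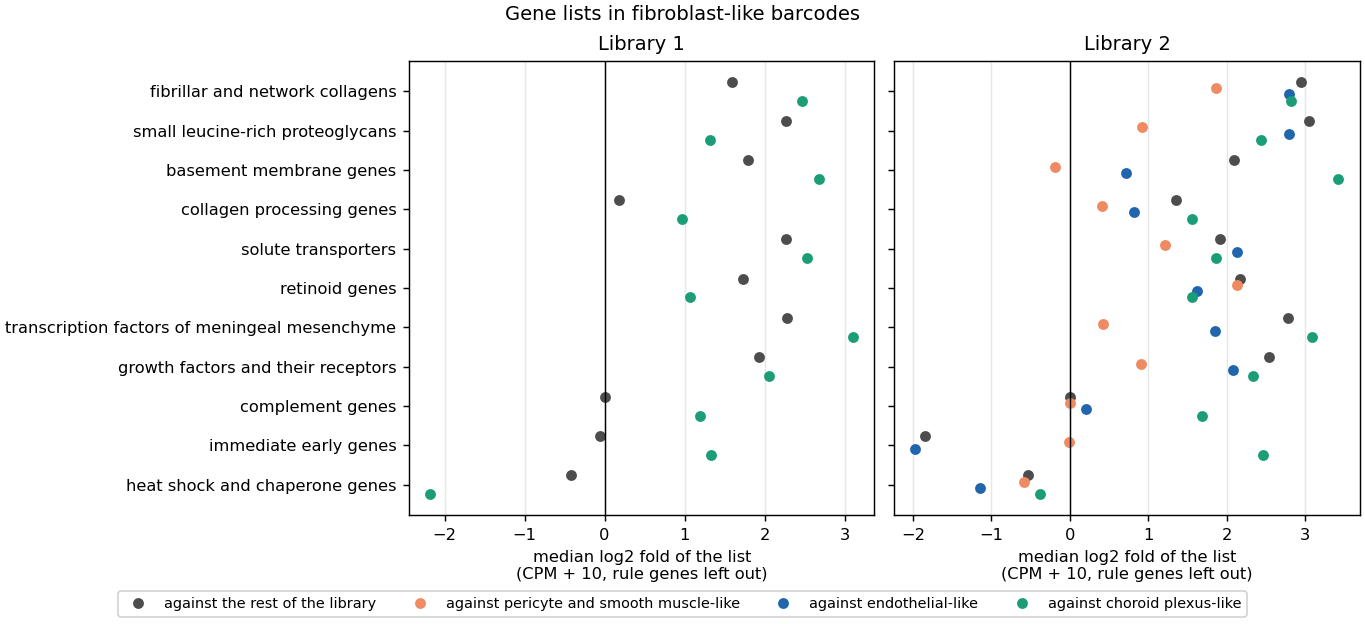
Median log2 fold (CPM + 10) of gene lists in fibroblast-like barcodes against the rest of the library (grey), pericyte and smooth muscle-like (orange), endothelial-like (blue) and choroid plexus-like barcodes (green), rule genes left out. In library 2 the transcription factors lie at 0.43 against pericyte and smooth muscle-like barcodes and at 1.86 against endothelial-like barcodes, and the immediate early genes at -1.97 against endothelial-like barcodes.

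Immediate early genes are induced within minutes by stimuli including cell handling. In library 2 they were lower in members than in microglial and endothelial-like barcodes, and higher than in neuronal and choroid plexus-like ones. The 29 genes summed to 3956 CPM (3759 to 4161) in members of library 2, against 14666 CPM in the rest. The member sum was uneven: 8 barcodes, set out below, held 797 of its 1503 UMIs. With each barcode weighted equally the members stood at 3002 CPM. The sums were 20598 CPM in microglial, 18203 CPM in endothelial-like, 3106 CPM in pericyte and smooth muscle-like, 1431 CPM in neuronal and 440 CPM in choroid plexus-like barcodes. Of the 29 genes 13 were at least 4-fold lower in members than in the rest and 0 higher. Against endothelial-like barcodes 14 were lower and 0 higher, and against pericyte and smooth muscle-like barcodes 0 were lower and 0 higher. Against choroid plexus-like barcodes 0 were lower and 17 higher. Jun, a subunit of the AP-1 factor, stood at 440 CPM (375 to 511) in members, against 2338 CPM in endothelial-like, 167 CPM in pericyte and smooth muscle-like barcodes and 2161 CPM in the rest. Fos, its partner, stood at 195 CPM (153 to 245) in members, against 1506 CPM in endothelial-like, 143 CPM in pericyte and smooth muscle-like barcodes and 1047 CPM in the rest.

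In library 1 the same genes summed to 1380 CPM (1111 to 1694) in members, 1096 CPM in the rest and 384 CPM in choroid plexus-like barcodes. Of the 29 genes 1 was at least 4-fold higher and 2 at least 4-fold lower than in the rest. Jun gave 6 UMIs in members (91.0 CPM, 33.4 to 198) against 94.7 CPM in the rest, and Fos gave 0 UMIs. Heat shock and chaperone genes summed to 1213 CPM (962 to 1510) in members and 1389 CPM in the rest of library 1. Their sum in library 2 was 3551 CPM (3364 to 3745) in members, 5896 CPM in pericyte and smooth muscle-like, 8117 CPM in endothelial-like barcodes and 5240 CPM in the rest.

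**Figure D4:**
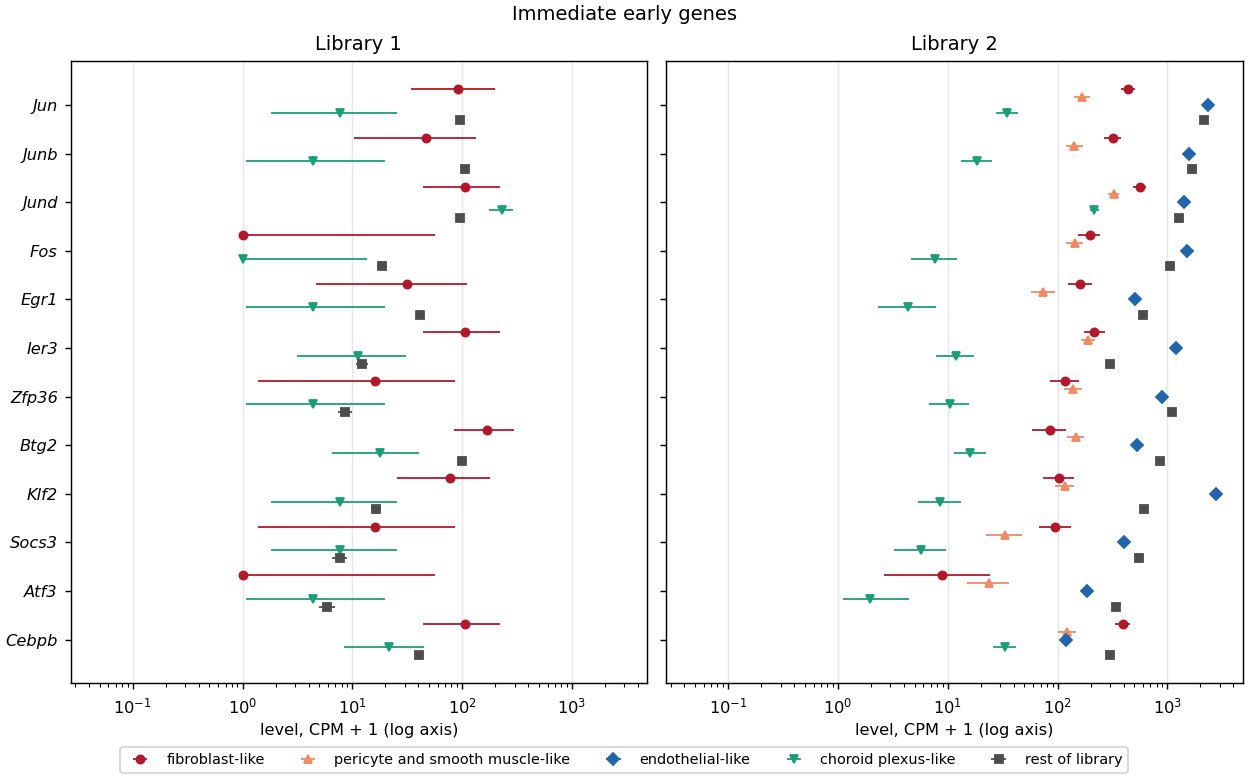
Level (CPM + 1, log axis) of immediate early genes by class with exact 95% Poisson intervals, fibroblast-like barcodes as red circles. In library 2 endothelial-like barcodes (blue) lie to the right of the members for every gene drawn except Cebpb, and the choroid plexus-like barcodes (green) to the left of them; pericyte and smooth muscle-like and endothelial-like barcodes of library 1 are not drawn, being under 50.

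The members of library 2 were not uniform, and they were split at a gap in their Ptgds shares. The share of a barcode's UMIs from Ptgds ran from 0 to 31.9% with a median of 1.81%. No member lay in the gap between 0.0791% and 0.187%. The values do not single it out, since the stretch from 0.192% to 0.442% was also empty and is wider in percent. Below the cut at 0.1% were 18 members, 12 of them without a Ptgds UMI, and above it 35. The gap and the cut at 0.1% were seen in these values, so the difference in Ptgds is a description, and what follows is one too. The 18 members had a median of 6804.5 UMIs and 7.07% mitochondrial UMIs, the other 35 a median of 5777 UMIs and 9.64%. In library 1 the share of Ptgds ran from 0 to 12.2% with a median of 1.63%, and 4 of 81 members had no Ptgds UMI.

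The rule asked for RNA of its genes in every member, so finding such RNA in both sets was fixed in advance. It therefore says nothing on whether both sets are the same kind of cell. The levels of single rule genes are described here for each side of the gap. Dcn stood at 4337 CPM in the 18 members below it and 3076 CPM in the 35 above it, Col1a1 at 1020 and 876 CPM, and Col1a2 at 1339 and 1611 CPM. Lum stood at 2733 CPM (2472 to 3013) in the 18 and 623 CPM (526 to 733) in the 35. Slc6a13 went the other way, with 483 CPM (377 to 609) in the 18 and 1662 CPM (1501 to 1836) in the 35. The factors Foxd1, at 544 CPM in the 18 and 503 CPM in the 35, and Tbx18, at 272 and 331 CPM, were at like levels in both. Pericyte and smooth muscle-like barcodes of library 2 also held them, at 305 and 156 CPM. Of all 24 factors of that list, 2 were at least 4-fold higher in the 18 and 1 at least 4-fold lower. The shares over all genes were 0.81% and 0.567%. The median log2 fold of the list was 0.15.

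Of 23814 genes 193 (0.81%) were at least 4-fold higher in the 18 members and 135 (0.567%) at least 4-fold lower. Alpl, the alkaline phosphatase of several connective tissues and vessels, stood at 816 CPM (676 to 975) in the 18, from 7 barcodes, and gave 0 UMIs in the 35. Emcn, the sialoprotein endomucin, stood at 483 CPM (377 to 609) in the 18, from 9 barcodes, and gave 0 UMIs in the 35. Igfbp7 stood at 2406 CPM (2162 to 2671) in the 18, from 15 barcodes, and 77.3 CPM (45.8 to 122) in the 35, from 7. Mgp stood at 11597 CPM in the 18, where 1 barcode held 73.2% of its UMIs, and 112 CPM in the 35. The endothelial genes Cldn5 and Pecam1 gave 0 UMIs in either set, which the rule favours. The 3 endothelial markers outside the rule summed to 272 CPM in the 18 and 472 CPM in the 35. Rgs5 was found in 3 of the 18 members and none of the 35. Of the 8 pericyte and smooth muscle markers, Rgs5, Kcnj8, Abcc9 and Tagln were at least 4-fold higher in the 18 and 0 lower, with a median log2 fold of 1.38. Tagln, a smooth muscle actin-binding protein, was found in 2 of the 18, and 1 barcode held 85.6% of its UMIs there. The list summed to 6064 CPM in the 18 and 7612 CPM in the 35, mostly from Vtn. The part of RNA from vessel cells in the difference between the sets, also for Emcn and Igfbp7, was not tested.

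Of 21 transporters outside the rule, 3 (Slc13a3, Slc22a6 and Slc22a2) were at least 4-fold lower in the 18 and 1 (Slc4a10) higher, against 0.567% and 0.81% of all genes. Of 12 retinoid genes, Aldh1a2, Crabp2 and Cyp26b1 were at least 4-fold lower in the 18 and 0 higher. Fmod gave 0 UMIs in the 18 and stood at 812 CPM (700.2 to 936) in the 35, from 18 barcodes. Slc22a6 stood at 88.4 CPM (47.1 to 151) in the 18 and 747 CPM (640.5 to 867) in the 35. Slc13a3 stood at 34.0 CPM (11.0 to 79.3) in the 18 and 399 CPM (322 to 489) in the 35. Aldh1a2 stood at 47.6 CPM in the 18 and 344 CPM in the 35, and Gjb6 at 109 and 752 CPM. Without Slc6a13, a gene of the rule, the transporter list summed to 6145 CPM (5751 to 6559) in the 18 and 10949 CPM (10528 to 11383) in the 35. Microglia markers moved with this split, at 306 CPM in the 18 and 2461 CPM in the 35, where 1 barcode held 74.9% of their UMIs. Their part in the result was not tested.

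Of the 1503 immediate early UMIs in the members of library 2, 924 came from the 18. The list summed to 6281 CPM (5883 to 6699.55) in the 18 and 2487 CPM (2289 to 2698) in the 35, and 6 of 29 genes were at least 4-fold higher in the 18 and 0 lower. Without the deepest of the 18 the sum was 4845 CPM, and with each barcode weighted equally 4240 CPM in the 18 and 2366 CPM in the 35. Fos had UMIs in 6 of the 18 members and 2 of the 35, and 1 barcode held 52.8% of the Fos UMIs of the 18. Egr1, an early zinc finger factor, had UMIs in 7 of the 18 and 1 of the 35. Per barcode the list made a median of 0.325% of UMIs in the 18 (0 to 1.60%) and 0.196% in the 35 (0 to 0.862%), so the ranges overlapped. The 18 were uneven, and 1 barcode held 32.8% of their immediate early UMIs. Split by Slc6a13 after its values were seen, 8 of the 18 had no Slc6a13 UMI and held 797 of the 924 UMIs, with 0.0920 to 1.60% per barcode (median 0.522%, median depth 14090 UMIs). The 10 with an Slc6a13 UMI had 0 to 0.486% (median 0.170%, median depth 5833.5 UMIs). Apod ran from 0 to 0.725% in the 8 and from 0 to 5.16% in the 10, against 0.359 to 3.08% in the 33 members above the gap with an Slc6a13 UMI. The sum over the 18 is therefore mainly that of the 8 barcodes.

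**Figure D5:**
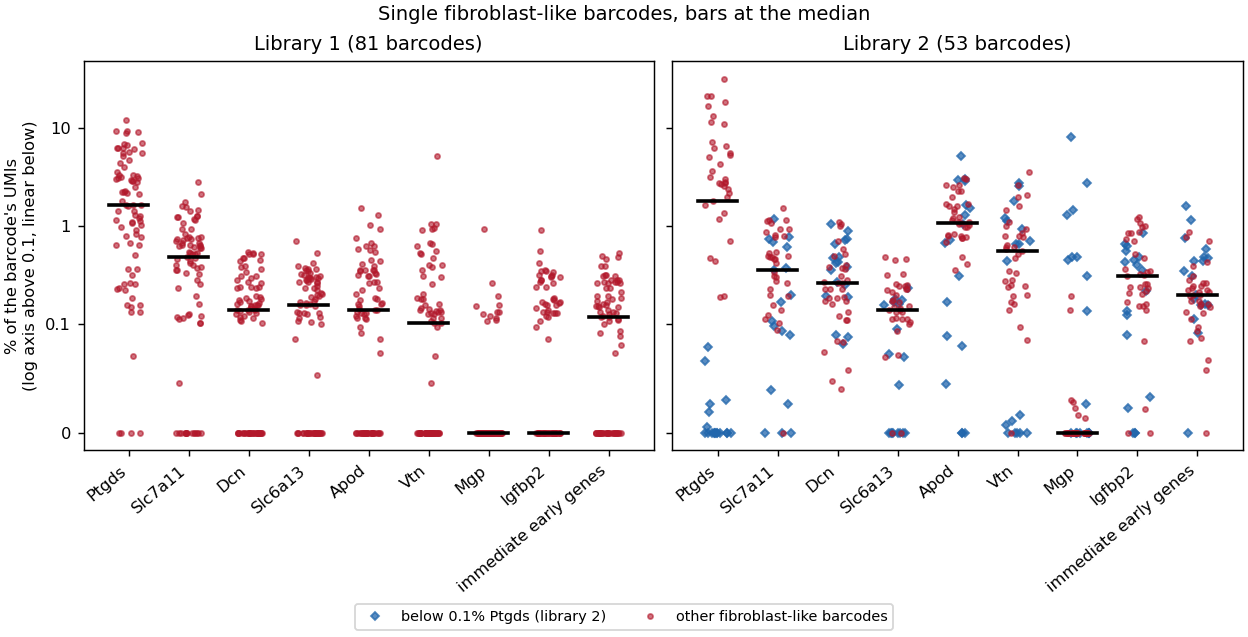
Percent of each fibroblast-like barcode's UMIs (log axis above 0.1, linear below) for 8 genes and for the immediate early gene list, with bars at the median over all members of the library. In library 2 the 18 barcodes below 0.1% Ptgds (blue diamonds) lie below the other 35 for Ptgds by the choice of the cut. They hold the highest Mgp values, and the ranges of both sets overlap for Dcn and the immediate early gene list.

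RNA of genes used as markers of other cell types was present in members, and not only at low levels. The sums below ran from 60.7 to 6369 CPM in members of library 1, and from 242 to 1908 CPM in members of library 2. The neuron sum of library 1 was above the 5520 CPM of Slc7a11 there. Microglia markers summed to 652 CPM in members and 5954 CPM in the rest of library 1, and to 1627 CPM in members and 24615 CPM in the rest of library 2, with all 8 genes at least 4-fold lower in members of both. Haemoglobin and other erythrocyte genes summed to 60.7 CPM in members and 1633 CPM in the rest of library 1, and to 276 CPM in members and 36275 CPM in the rest of library 2. Choroid plexus markers, mostly the abundant Ttr, summed to 925 CPM in members and 337467 CPM in choroid plexus-like barcodes of library 1. The same markers in library 2 gave 1908 CPM in members and 236387 CPM in choroid plexus-like barcodes. Neuron markers summed to 6369 CPM in members and 35966 CPM in the rest of library 1, and to 1524 CPM in members and 808 CPM in the rest of library 2. Snhg11 and Meg3 gave most of this, and the other 5 genes summed to 713 CPM in members of library 1 and 26.3 CPM in members of library 2. Oligodendrocyte markers summed to 2532 CPM in members and 2643 CPM in the rest of library 1, and to 242 CPM in members and 1487 CPM in the rest of library 2. The part of such RNA in the members' own levels was not tested. Since the cells are pooled, less RNA per cell and fewer cells with the RNA cannot be told apart in a summed level.

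The neuronal RNAs of the rule, Snhg11 and Meg3, were in a different proportion in members than in neurons. In library 2 members had 471 Snhg11 UMIs and 98 Meg3 UMIs, or 4.81 Snhg11 UMIs per Meg3 UMI, against 0.257 in neuronal barcodes. In library 1 the ratio was 0.923 in members and 0.417 in neuronal barcodes. Both genes were limited by the rule, so this is a description. At 500 UMIs, 37.7% of members of library 2 had an Snhg11 UMI, against 2.17% of microglial barcodes, while Meg3 had a UMI in 9.43% of members and 6.39% of microglial barcodes.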

How the data were processed

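The deposited files hold raw counts, UMIs per gene and barcode for 41605 genes, made by the authors with Cell Ranger 3.0.1 on GRCm38.p5 per the submitters' processing notes. No normalization had been applied, and no barcode had fewer than 500 UMIs. The members, the 29 gene lists (360 genes) and the comparisons were chosen with earlier results of these data known. UMIs were summed over the barcodes of a class and divided by their total (CPM). 3' UMI counts were not corrected for gene length. Intervals are 95%, exact Poisson for counts and Clopper-Pearson for shares (scipy 1.17.1, Python 3.11.15), and cover counting error only. PCR copies are merged by UMI. No test was made, since each library is 1 pooled sample. Comparison classes were barcodes with at least 3 UMIs and 0.3% of UMIs from at least 2 of their own markers, under 0.3% of the 6 rule genes, and at least 50 barcodes. Neuronal barcodes had at least 1.5% Meg3 plus Snhg11, and microglial ones at least 1% microglia genes. Fold sums were checked on simulated counts.

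Named genes were the 6 of the rule, up to 6 per list with the highest CPM, and the 20 with the highest fold against the rest in the weaker library, among those with at least 10 UMIs in members of both. Others named were chosen after their values were seen, among them all genes set out by the Ptgds gap. Doublets were scored with Scrublet in scanpy 1.11.5 and kept. In library 1 the automatic threshold marked 12.5% of barcodes and 7 of 81 members. In library 2 it marked 0.0496%, so the expected share with the highest scores was taken (3.54%), which held 0 of 53 members. Gene positions are from GENCODE M21 on GRCm38, and promoters from RefSeq on GRCm38.p6. Alternatives were other limits on depth, mitochondrial share, marker share, doublets, other classes' markers, weight of barcodes, added CPM and low counts. Scaling without Malat1 and mitochondrial UMIs, counting intervals and the Ptgds gap were added after the data had been seen.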

Additional observations from a re-analysis of the deposited data

Results flagged for a closer look

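Barcodes above the mitochondrial limit of 20% were not used as members, and some of library 2 met the marker rule. They were 14 of 2076, or 0.674% (exact binomial 95% interval 0.369 to 1.13%), above the floor of 0.145%, the share of 3 barcodes. In library 1 these were 2 of 211, or 0.948% (0.115 to 3.38%), under the floor of 1.42%, the share of 3 barcodes. A mitochondrial limit of 20% thus leaves out barcodes with the same marker RNAs, and their other genes were not analysed here.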

How the results depend on the processing

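No paired analysis was possible because neither library was placed in a group and no result comes from a test. Among the results that answer a comparison, 63 values under an alternative stayed within their interval and 35 moved. For counts of genes the limit was 1.5 times. The moved values listed below are shares, counts of genes and summed levels. Such values have no sign, so a reversal could not be seen in them. For genes named among many, 501 stayed and 155 moved. At 1000 UMIs and 500 genes the share of members in library 1 was 0.133%, from 10 members, genes at least 4-fold higher were 958, collagens summed to 2881 CPM and transcription factors to 5762 CPM. With at least 0.6% of UMIs from 3 rule genes the shares were 0.215% in library 1 and 0.744% in library 2. The genes at least 4-fold higher were then 869 in library 1, the collagens 3836 and 5502 CPM in libraries 1 and 2, the transporters and transcription factors 14398 and 7724 CPM in library 1, and the immediate early genes 4654 CPM in library 2. Adding 1 CPM gave 1302 genes in library 1 and 1036 in library 2, adding 50 CPM gave 89 and 127, and counting intervals 4-fold apart gave 283 in library 1. Without the 28 members that carry markers of other classes (all through the pericyte group with Vtn) the share in library 2 was 0.624%, the collagens 3675, the immediate early genes 5146, the transporters 7581 and the transcription factors 5725 CPM. At 10% mitochondrial UMIs the collagens of library 2 summed to 4681 CPM. With equal weight per barcode the immediate early genes were 3002, the transporters 12135 and the transcription factors 6801 CPM in library 2, and without the deepest member the transporters were 10647 CPM. Without Malat1 and mitochondrial UMIs the levels in libraries 1 and 2 were 4324 and 5185 CPM for collagens, 1797 and 4612 CPM for immediate early genes, 16369 and 12000 CPM for transporters, and 8471 and 7078 CPM for transcription factors. This last scaling raises every CPM by construction. The collagen sums (3321 and 4448 CPM in libraries 1 and 2 as reported) hold the rule genes Col1a1, Col1a2 and Col3a1, and the transporter sums (12571 and 10295 CPM) hold Slc6a13, so a stricter marker share raises them by construction. The cause of the other moves was not tested. In library 1 the depth limits genes under 45.5 CPM.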
